A study of Caenorhabditis elegans with 16 samples.

Results

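The 269 genes of *Caenorhabditis elegans* whose deposited gene name begins with *nhr-*, the nuclear hormone receptor genes, were examined among the 21882 genes of 2 tables of gene counts. The names alone defined the members, though the family was chosen with earlier results of these data known. RNA with poly(A) tails was sequenced from whole embryos of mixed stages, collected by bleaching gravid adults. There were 4 groups of 4 libraries: mutant embryos from a batch grown at 25 °C (47 hours after plating), wild-type embryos from the same temperature and time, mutant embryos from a batch grown at 20 °C (56 hours after plating), and wild-type embryos from that temperature and time. The mutant strain, SX3678, carries the *fbxa-215(syb4404)* allele, and the wild-type strain is N2. *fbxa-215* encodes an F-box protein. The mutant is a single allele in a single strain, so the allele cannot be told apart from any other difference between the strains. The methods speak of biological replicates without saying how the cultures of a group were kept apart, and p-values measure the spread between these libraries.

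Nuclear hormone receptors are transcription factors that bind DNA through a domain of zinc fingers and carry a second domain that can bind small lipophilic molecules such as steroids, fatty acids or bile acid-like hormones. Nematodes carry many more of them than insects or vertebrates, largely through the multiplication of an ancestor related to the vertebrate receptor HNF4. A smaller group has clear counterparts in flies and mammals and acts in moulting, cell fate and hormone signalling, while several of the HNF4-related members control fat, propionate and nutrient metabolism.

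Total counts per library lay between 10001670 and 16777296, and the *nhr* genes took 0.307 to 0.321% of them in mutant embryos at 25 °C, 0.313 to 0.334% in wild type at 25 °C, 0.256 to 0.273% in mutants at 20 °C and 0.269 to 0.274% in wild type at 20 °C. Levels are given as CPM, counts per 1000000 counts of a library, with library sizes scaled by the trimmed mean of M-values (TMM), with the SD over 4 libraries. A count of 3 in 1 library corresponded to between 0.179 and 0.300 CPM. This floor and the counting intervals cover counting error only. *fbxa-215* had no count in any mutant library at 25 °C and 2170 to 2753 counts in wild type at 25 °C. It had at most 1 count in mutants at 20 °C and 2263 to 3214 counts in wild type at 20 °C. Adult genes were nearly absent: the summed CPM of 9 adult genes (yolk proteins and adult collagens) reached 4.03 in mutants at 25 °C, 4.12 in wild type at 25 °C, 2.28 in mutants at 20 °C and 2.04 in wild type at 20 °C. Pairs of libraries of 1 group differed by more than counting noise, with a chi-square per gene between 2.21 and 20.2. The highest values belonged to pairs with the fourth wild-type library at 25 °C.

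Marker genes of embryonic stage differed between the 4 groups, in the same comparisons as the *nhr* genes. The summed level of 18 late differentiation genes (muscle, cuticle, gut and neuron) was 2825 to 3345 CPM in mutants at 25 °C, 3278 to 3607 CPM in wild type at 25 °C, 1236 to 1453 CPM in mutants at 20 °C and 1527 to 1627 CPM in wild type at 20 °C. The summed level of 17 maternal genes ran the other way with temperature, at 2475 to 2614 CPM in mutants at 25 °C, 2150 to 2407 CPM in wild type at 25 °C, 3285 to 3489 CPM in mutants at 20 °C and 3436 to 3565 CPM in wild type at 20 °C. A stage score, the mean log2 CPM of the late genes minus that of the maternal genes, was −1.59 to −1.29 in mutants at 25 °C and −1.19 to −1.04 in wild type at 25 °C. At 20 °C it was −3.90 to −3.59 in mutants and −3.57 to −3.30 in wild type. The score was thus higher at 25 °C in both strains and lower in mutants at both temperatures, with no overlap between the libraries. At 20 °C the lower score in mutants went with the late genes (median log2 fold change −0.47). The maternal genes were not higher in mutants there (median −0.05). At 25 °C the late genes had a median of −0.16, and 16 of the 17 maternal genes were higher in mutants (median 0.13). Of 10 early zygotic genes tested, 9 were higher in mutants at 20 °C (median 0.12) and 10 at 25 °C (median 0.08). At an adjusted p under 0.05 in edgeR, 1 of these passed at 20 °C and 0 at 25 °C. In bulk embryos, fewer cells of a type and less RNA per cell cannot be told apart.

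The family is concentrated on 1 chromosome. Chromosome V holds 167 of the 269 *nhr* genes (62.1%), against 25% of protein-coding genes, chromosome IV holds 33, chromosomes I and X hold 23 each, II holds 15 and III holds 8. A gene was counted as detected in a group at a mean of at least 1 CPM. By this measure 159 members were detected in mutants at 25 °C, 169 in wild type at 25 °C, 138 in mutants at 20 °C and 144 in wild type at 20 °C. In all, 175 members (65.1%) were detected in at least 1 group, 133 in all 4 groups and 94 in none, and 12 had no count in any of the 16 libraries. On chromosome V, 108 of 167 members were detected (64.7%), whereas 39.0% of all protein-coding genes of that chromosome were. Away from chromosome V the shares were 65.7% of members and 62.7% of protein-coding genes. Chromosome IV had the highest share of its members detected, 26 of 33, and chromosome I the lowest, 12 of 23. The pooled shares away from chromosome V cover opposite directions. Members were detected less often than protein-coding genes on chromosomes I (52.2% against 69.8%), II (53.3% against 60.2%) and III (62.5% against 72.6%). They were detected more often on chromosomes IV (78.8% against 53.97%) and X (69.6% against 59.04%).

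More members passed the detection limit at 25 °C than at 20 °C, and so did more of all genes. Both strains had 17 members (6.32%) at or above 1 CPM at 25 °C and below it at 20 °C, among them *nhr-117*, *nhr-170*, *nhr-183* and *nhr-213*, and 990 of all 21882 genes (4.52%) had this pattern. The reverse pattern was found in 1 member (0.372%) and in 69 of all genes (0.315%). This member, *nhr-253*, had 0.382 ± 0.110 CPM in mutants at 25 °C, 0.219 ± 0.138 CPM in wild type at 25 °C, 1.46 ± 0.480 CPM in mutants at 20 °C and 1.01 ± 0.491 CPM in wild type at 20 °C.

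To compare levels between genes, the mean CPM over the 16 libraries was divided by the length of the merged exons in kilobases. On this scale 4 members were above 50 CPM per kb, 38 were at 10 to 50, 98 at 1 to 10, 68 at 0.1 to 1 and 61 below 0.1. The top 4 took 25.2% of all *nhr* CPM and the top 10 took 36.1%. *nhr-2*, a receptor known from early embryos, ranked first at 103 CPM per kb. It was followed by *nhr-49* (87.4 CPM per kb), which controls fatty acid use and desaturation, by *nhr-46* (76.2 CPM per kb), and by *nhr-25* (67.9 CPM per kb), the counterpart of fly Ftz-F1 with roles in the epidermis and in moulting. *nhr-10* (41.7 CPM per kb), which switches on the propionate shunt, *nhr-61* (35.2 CPM per kb), *nhr-20* (33.8 CPM per kb), *nhr-47* (33.3 CPM per kb), *nhr-86* (30.7 CPM per kb) and *nhr-17* (26.9 CPM per kb) completed the top 10. The levels of *nhr-23*, the counterpart of mammalian ROR receptors that drives moulting, and of *nhr-17* were equal at 3 significant digits. Of these, *nhr-61*, *nhr-20*, *nhr-47*, *nhr-86* and *nhr-17* overlap another annotated gene. Overlap here and below is that of whole gene spans with introns, and exons were not compared. The libraries did not keep strand, so reads of any shared exon parts cannot be assigned with certainty.

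**Figure D1:**
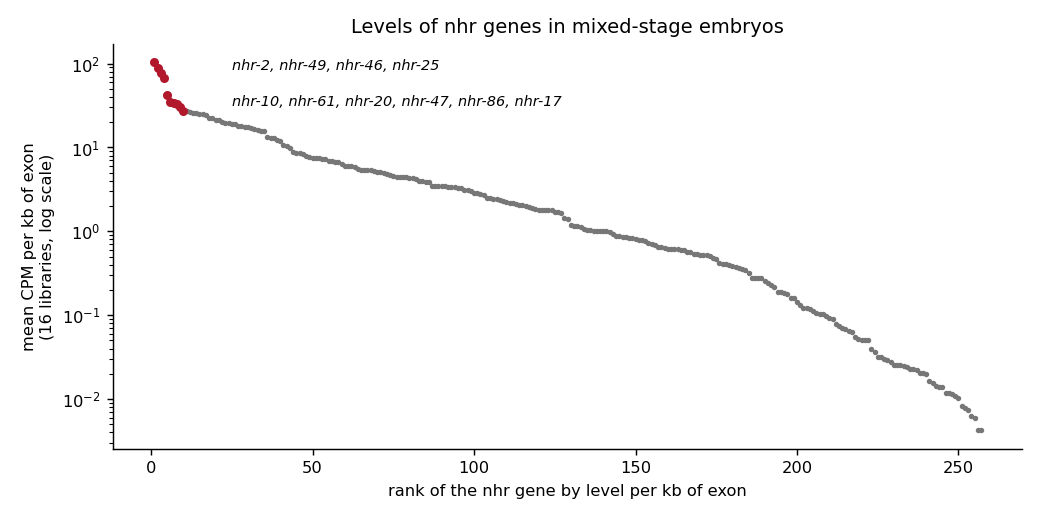
Mean level of each *nhr* gene with at least 1 count, in CPM per kb of exon over 16 libraries on a log axis, against its rank. The 10 highest members are in red and named, from *nhr-2* at 103 to *nhr-17* at 26.9 CPM per kb, and 68 genes lie between 0.1 and 1 CPM per kb.

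The study asked which genes depend on *fbxa-215*, comparing mutant with wild-type embryos at each temperature. Genes were tested with edgeR's quasi-likelihood test across all genes that passed a filter on low counts, p-values were adjusted over all of them (Benjamini-Hochberg), and calls required both a fold change above 2 and an adjusted p under 0.05. Few *nhr* genes differed between the strains, and those called were close to the lower limit of detection.

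At 20 °C, 150 of the 269 members passed the filter. *nhr-192* was called higher and *nhr-206* lower in mutants, which makes 1 call in each direction. With *fbxa-215* left out, 10470 genes were tested, of which calls as higher made up 0.267% and calls as lower 0.850%. Without the fold minimum, 3 members were higher and 5 lower, 8 in all, where 7.65% of all genes were higher and 9.66% lower. The median log2 fold change of the members was −0.07, with 62 positive and 88 negative values, and that of all genes was 0.0015.

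*nhr-206* (chrV:12092006-12093873, plus strand, WBcel235) had 0.718, 0.617, 0.545 and 0.729 CPM in mutants at 20 °C, against 0.862, 1.46, 1.42 and 1.94 CPM in wild type at 20 °C. The libraries did not overlap (log2 fold change −1.09 ± 0.31, SE; adjusted p = 0.0166 in edgeR). At 25 °C the same gene averaged 1.20 ± 0.313 CPM in mutants and 1.10 ± 0.308 CPM in wild type (log2 fold change 0.15, adjusted p = 0.798 in edgeR). The counts behind these values were small, 8 to 11 per library in mutants and 12 to 19 in wild type at 20 °C. The call at 20 °C was lost with DESeq2 and in fits lacking 1 library (wild-type 4, mutant 2 or mutant 3), and the log2 fold change lay between −1.28 and −0.41 over the alternatives.

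*nhr-192* (chrV:10069369-10070641, minus strand), which overlaps *npr-39*, had 1.76, 1.23, 1.77 and 1.62 CPM in mutants at 20 °C, against 0.934, 1.0, 0.674 and 0.204 CPM in wild type at 20 °C. All 4 mutant libraries were above all 4 wild-type libraries (log2 fold change 1.10 ± 0.32, adjusted p = 0.0191 in edgeR). The call was lost without wild-type replicate 3 or 4 or mutant replicate 3. At 25 °C the gene had 4 to 15 counts per library in mutants and 8 to 14 in wild type and was not tested.

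Of the smaller differences at 20 °C, those of *nhr-14* and *nhr-66* were kept in every alternative except the one with the stage score as a covariate. *nhr-14*, a receptor known for its part in iron uptake and immunity, had 6.07, 6.05, 6.27 and 6.0 CPM in mutants at 20 °C, against 8.98, 9.79, 7.93 and 7.75 CPM in wild type at 20 °C. The mutant libraries lay within a narrow range below every wild-type library (log2 fold change −0.51 ± 0.12, adjusted p = 0.00402 in edgeR). With the stage score the log2 fold change was −0.57 ± 0.21 (adjusted p = 0.189 in edgeR), slightly further from 0 and with a wider error. *nhr-66*, a partner of NHR-49 in lipid metabolism, had 62.1, 65.1, 68.9 and 63.5 CPM in mutants at 20 °C, against 74.7, 70.1, 74.6 and 74.8 CPM in wild type at 20 °C. These did not overlap either, and the difference was small (log2 fold change −0.19 ± 0.05, adjusted p = 0.00776 in edgeR). With the stage score it was −0.27 ± 0.08 (adjusted p = 0.106 in edgeR). *nhr-66* overlaps *serp-1.2*.

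The other 4 members with an adjusted p under 0.05 at 20 °C were not called. *nhr-138* (log2 fold change −0.30 ± 0.10) and *nhr-97* (−0.18 ± 0.06) were lower in mutants, while *nhr-168* (0.29 ± 0.10) and *nhr-25* (0.13 ± 0.04) were higher, with edgeR adjusted p-values of 0.0366, 0.0393, 0.0404 and 0.0465 in that order. Each lost this threshold under DESeq2, with all 16 libraries in 1 fit and without at least 5 of the 8 libraries taken singly, *nhr-138* also with a filter of 1 count and *nhr-25* also with upper-quartile scaling and with a filter of 10 counts in every library. *nhr-138* lost it without wild-type replicate 1 or 2 or mutant replicate 1, 3 or 4, and *nhr-97* without wild-type replicate 1 or 2 or mutant replicate 2, 3 or 4. *nhr-138* overlaps *C28D4.18*. *nhr-168* lost it without wild-type replicate 2, 3 or 4 or mutant replicate 1, 2 or 3, and *nhr-25* without wild-type replicate 1, 3 or 4 or mutant replicate 1, 2 or 3.

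**Figure D2:**
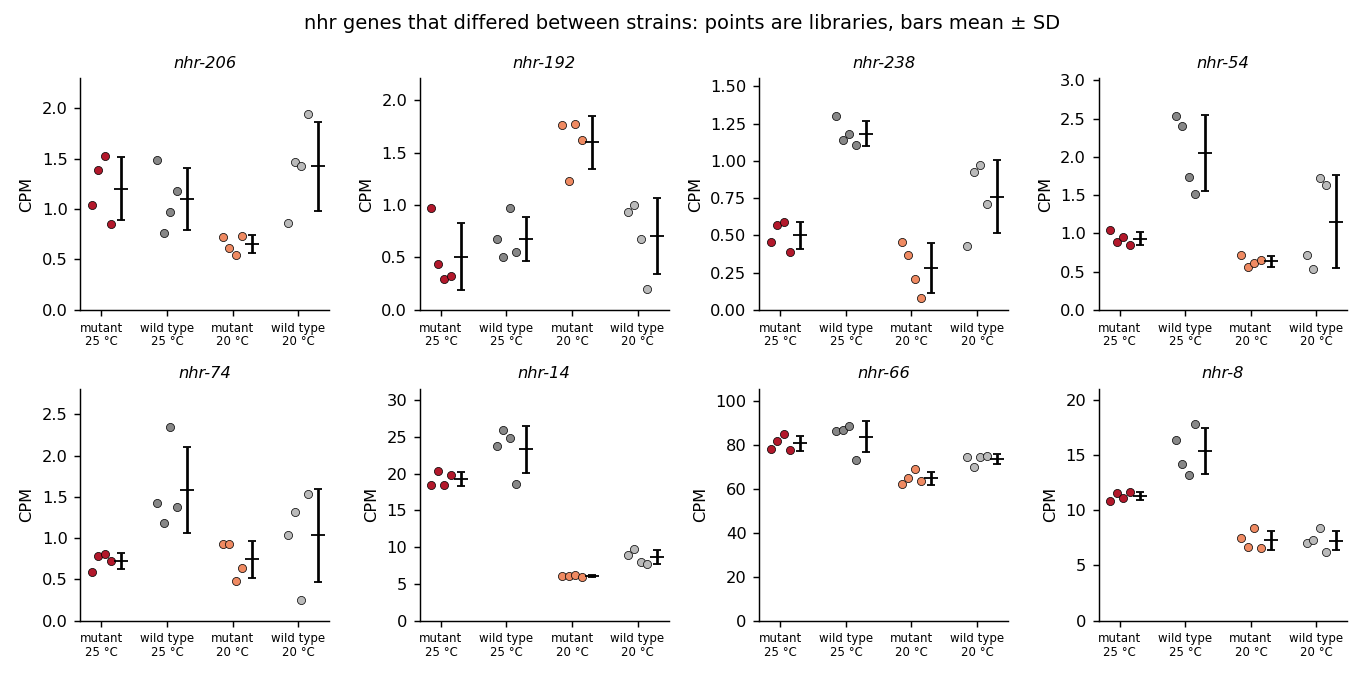
CPM of 8 *nhr* genes that differed between strains at 20 °C or 25 °C, by group. Points are libraries and bars are the mean ± SD (4 libraries); *nhr-206*, *nhr-192*, *nhr-238*, *nhr-54* and *nhr-74* stayed below 3 CPM in every library, while *nhr-66* lay between 62.1 and 88.7 CPM.

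At 25 °C, 179 of the 269 members passed the filter. There were 3 calls, *nhr-238*, *nhr-54* and *nhr-74*, all lower in mutants, where 0.243% of all 11944 genes tested were called lower and 0.0670% higher. Without the fold minimum 5 members were lower and none higher, with 2.03% of all genes lower and 2.09% higher. The median log2 fold change of the members was −0.12, with 50 positive and 129 negative values, and that of all genes was −0.0023.

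*nhr-238* (chrV:1628105-1629432, minus strand) had 0.455, 0.567, 0.587 and 0.391 CPM in mutants at 25 °C, against 1.30, 1.14, 1.18 and 1.10 CPM in wild type at 25 °C. The groups were well separated (log2 fold change −1.21 ± 0.26, adjusted p = 0.0205 in edgeR), on 6 to 9 counts per library in mutants and 16 to 21 in wild type. At 20 °C it did not pass the filter, with 0.278 ± 0.168 CPM in mutants and 0.761 ± 0.247 CPM in wild type. The call was lost with DESeq2 and without wild-type replicate 1 or mutant replicate 1 or 4.

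*nhr-54* (chrV:16503944-16505928, minus strand) had 1.04, 0.881, 0.954 and 0.847 CPM in mutants at 25 °C, against 2.53, 2.41, 1.74 and 1.52 CPM in wild type at 25 °C. *nhr-74* (chrI:11429014-11432156, plus strand) had 0.585, 0.783, 0.810 and 0.717 CPM in mutants at 25 °C, against 1.42, 1.19, 2.35 and 1.38 CPM in wild type at 25 °C. Neither gene had overlapping libraries. The log2 fold change was −1.12 ± 0.24 for *nhr-54* and −1.11 ± 0.28 for *nhr-74*, with edgeR adjusted p-values of 0.0194 and 0.0383. The call of *nhr-54* was lost without wild-type replicate 1 or 2 or mutant replicate 1, 3 or 4. That of *nhr-74* was lost with DESeq2 and without wild-type replicate 1 or 3 or any 1 of the 4 mutant replicates. The estimated counts of *nhr-74* were whole in 8 of the 16 libraries, so its reads cannot all be assigned to it with certainty. This was not particular to scarce genes. Counts were whole in 0 libraries for *nhr-2*, *nhr-25* and *nhr-46*, in 1 for *nhr-49* and in 4 for *nhr-10* and *nhr-97*.

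*nhr-8*, related to the steroid receptor DAF-12 and needed for resistance to toxins and for cholesterol balance, was the most abundant of the 5. It had 10.9, 11.5, 11.1 and 11.7 CPM in mutants at 25 °C, against 16.3, 14.2, 13.2 and 17.8 CPM in wild type at 25 °C. The mutant libraries lay within 1 CPM of each other and below all wild-type libraries (log2 fold change −0.42 ± 0.10, adjusted p = 0.0281 in edgeR). The threshold was missed without wild-type replicate 1 or mutant replicate 1, 3 or 4, and the gene overlaps *F33D4.6*. At 20 °C the means were equal within their SD, 7.26 ± 0.841 CPM in mutants and 7.24 ± 0.893 CPM in wild type. *nhr-113* had a log2 fold change of −0.99 ± 0.25 at 25 °C (adjusted p = 0.0416 in edgeR) on 9 to 14 counts per library in mutants and 20 to 27 in wild type, and lost the threshold with DESeq2, with a filter of 1 count, with a replicate block and without any 1 library other than mutant replicate 2.

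No member passed an adjusted p of 0.05 between strains at both temperatures. The 2 strain comparisons share no library. Of the 147 members tested in both, 69 had a lower level in mutants at both temperatures, 27 a higher level at both and 51 opposite signs (46.9%, 18.4% and 34.7%). Of 10381 genes tested in both, with *fbxa-215* left out, the shares were 30%, 33.7% and 36.4% in the same order. With the stage score as a covariate none of the 13 differences between strains kept an adjusted p under 0.05, while all 13 kept their direction and 4 had an unadjusted p under 0.05. The log2 fold changes of *nhr-14*, *nhr-25*, *nhr-66* and *nhr-8* were further from 0 in that fit and those of the other 9 nearer to 0, the largest reduction being that of *nhr-206*, to −0.41 ± 0.52. The SE was 1.64 to 1.95 times that without the score. The median log2 fold change of the members in that fit was −0.03 at 20 °C and −0.04 at 25 °C. Because the score did not overlap between the strains at either temperature, strain and stage mixture cannot be told apart in these libraries.

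**Figure D3:**
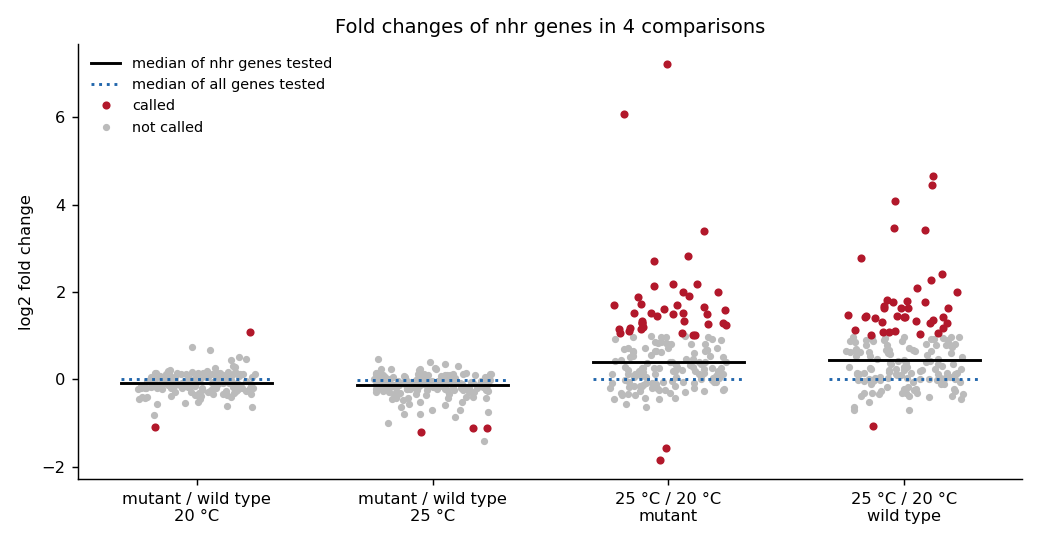
Log2 fold changes of the *nhr* genes tested in 4 comparisons, with called genes in red, the median of the *nhr* genes as a solid line and the median of all genes tested as a dotted line; horizontal spread is for visibility. The strain comparisons centre at −0.07 and −0.12 with 2 and 3 calls, and the temperature comparisons at 0.39 in mutants and 0.46 in wild type with 42 and 41 calls.

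The design also allows the 25 °C batch to be compared with the 20 °C batch within each strain, and many members differed there. Batches at 25 °C and at 20 °C also differed in hours after plating, and temperature, time, batch and stage mixture cannot be told apart. In mutants, 169 members passed the filter at 25 °C against 20 °C: 40 were called higher and 2 lower, where 18.8% of all 11558 genes tested were called higher and 1.05% lower. Without the fold minimum 94 members were higher and 15 lower, and of all genes 36.3% were higher and 33.0% lower. In wild type, 170 members passed: 40 were called higher and 1 lower, where 20.0% of all 11579 genes were called higher and 1.13% lower. Without the fold minimum 93 were higher and 15 lower, and of all genes 34.8% were higher and 31.3% lower. The median log2 fold change of the members was 0.39 in mutants and 0.46 in wild type, against 0.0043 and 0.0022 for all genes in the same comparisons. The filter could keep a gene on its counts in a single group, so genes scarce at 20 °C could enter through 25 °C alone. The counts of calls and the medians therefore depend partly on the filter. With 10 counts required in every library, the member medians were 0.30 in mutants and 0.31 in wild type. Those of all genes were then −0.0057 and −0.0009.

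The comparisons in the 2 strains share no library. Of 164 members tested in both, 149 had the same sign (90.9%), as had 88.3% of the 11319 genes tested in both. At an adjusted p under 0.05 in both strains, 77 members were higher (47%) and 9 lower (5.49%) at 25 °C and none was significant in opposite directions, whereas of all genes 30.7% were higher, 26.9% lower and 0.115% opposite. Of the 40 members called higher in each strain, 30 were shared, which is 75% of either list. Over all genes the shared calls made up 88.6% of the calls in mutants and 83.2% of those in wild type.

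Most called members were scarce. Among those called higher, the level at 25 °C was below 5 CPM for 29 of 40 in mutants and 27 of 40 in wild type, and at least 10 CPM for 6 in mutants and 10 in wild type. Their log2 fold changes ran between 1.02 and 7.22 in mutants, with a median of 1.52, and between 1.02 and 4.66 in wild type, with a median of 1.46. The largest belonged to genes that were almost without counts at 20 °C.

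*nhr-170* (chrV:18796061-18800826, minus strand) had 0.994, 2.14, 1.03 and 0.717 CPM in mutants at 25 °C and no count in any mutant library at 20 °C, which makes it at least 5.88-fold higher against a floor of 3 counts per library. In wild type it had 1.85, 1.20, 1.46 and 1.37 CPM at 25 °C, against 0, 0, 0.0748 and 0.204 CPM at 20 °C, a ratio of 24.7 with a 95% counting interval of 8.18 to 122 (exact binomial, on 90 and 3 counts). The gene had counts in all 8 libraries at 25 °C and in 2 of 8 at 20 °C. The fitted log2 fold changes, 7.22 ± 0.89 in mutants and 4.44 ± 0.53 in wild type, depend on the prior count used by the fit.

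*nhr-183* (chrV:2262489-2264634, minus strand) had 1.43, 1.89, 1.69 and 1.56 CPM in mutants at 25 °C, against 0, 0.0617, 0 and 0 CPM in mutants at 20 °C. That is 99 counts against 1, a ratio of 96.2 with a 95% exact interval of 16.9 to 3838. In wild type it had 2.35, 2.35, 3.13 and 3.11 CPM at 25 °C, against 0.144, 0.154, 0.0748 and 0 CPM at 20 °C. The log2 fold change in wild type was 4.66 ± 0.39 (adjusted p = 4.28e-08 in edgeR), and both strains were separated without overlap.

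*nhr-213* (chrV:15894439-15896771, minus strand) had counts in every library. Its levels were 1.95, 3.09, 4.18 and 3.00 CPM in mutants at 25 °C, against 0.326, 0.308, 0.204 and 0.324 CPM in mutants at 20 °C. In wild type they were 4.76, 4.06, 5.0 and 5.25 CPM at 25 °C, against 0.575, 0.308, 0.449 and 0.408 CPM at 20 °C. The log2 fold change was nearly equal in the strains, 3.40 ± 0.33 in mutants and 3.42 ± 0.23 in wild type (edgeR adjusted p = 1.67e-09 and 3.79e-09).

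The rest of the largest rises differed between the lists of the strains. In mutants they were *nhr-267* (log2 fold change 2.81 ± 0.46), *nhr-117* (2.71 ± 0.50) and *nhr-126* (2.19 ± 0.26). In wild type they were *nhr-113* (4.07 ± 0.51), *nhr-180* (3.47 ± 0.47) and *nhr-63* (2.78 ± 0.42). *nhr-117* and *nhr-126* were also called in wild type, at 2.09 ± 0.31 and 1.64 ± 0.20, while *nhr-113*, *nhr-180* and *nhr-63* did not pass the filter in mutants and *nhr-267* did not pass it in wild type. *nhr-180* overlaps *srh-266*, and *nhr-63* overlaps an annotated gene without a name. Estimated counts of *nhr-267* were whole in 7 of the 16 libraries, so its reads cannot all be assigned to it with certainty.

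Members called lower at 25 °C numbered 3, each called in 1 strain. *nhr-253* (log2 fold change −1.83 ± 0.35, adjusted p = 5.36e-05 in edgeR) and *nhr-192* (−1.57 ± 0.33, adjusted p = 0.000209 in edgeR) were called in mutants, and neither passed the filter in wild type. *nhr-205* was called in wild type (−1.07 ± 0.29, adjusted p = 0.00437 in edgeR), with 1.17, 1.52, 0.556 and 0.552 CPM at 25 °C, against 2.08, 1.93, 2.25 and 1.94 CPM at 20 °C. All 4 wild-type libraries at 25 °C were below those at 20 °C. In mutants its log2 fold change was −0.56 ± 0.26 (adjusted p = 0.0626 in edgeR).

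**Figure D4:**
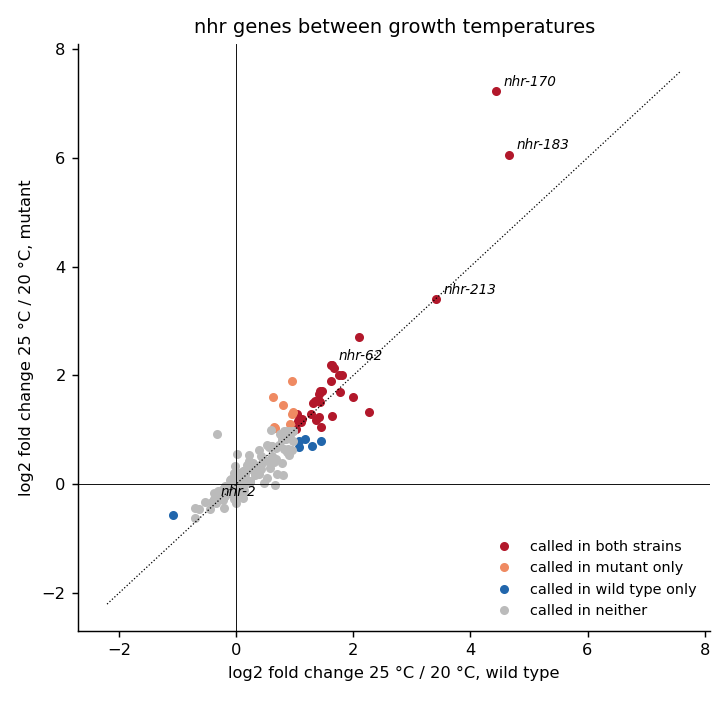
Log2 fold change at 25 °C against 20 °C in mutants (vertical axis) and in wild type (horizontal axis) for the 164 *nhr* genes tested in both strains; colours mark the strains in which a gene was called and the dotted line marks equal values. *nhr-183* and *nhr-170* lie highest in both strains, and 149 genes have the same sign.

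Of the 10 receptors with the highest levels per kb, none was called between temperatures in either strain. *nhr-2* was lower at 25 °C, with 182, 160, 164 and 182 CPM in mutants at 25 °C, against 220, 224, 220 and 217 CPM in mutants at 20 °C. In wild type it had 162, 157, 150 and 168 CPM at 25 °C, against 203, 206, 216 and 214 CPM at 20 °C. The temperatures did not overlap in either strain, at log2 fold changes of −0.31 ± 0.04 in mutants and −0.38 ± 0.05 in wild type (edgeR adjusted p = 1.88e-07 and 4.22e-06). *nhr-61* was also lower in both strains, by smaller amounts (−0.20 ± 0.06 in mutants, −0.27 ± 0.07 in wild type). *nhr-49* was slightly higher, 0.20 ± 0.04 in mutants and 0.15 ± 0.06 in wild type, but in wild type the adjusted p of 0.0460 (edgeR) was missed under DESeq2, RLE scaling and a filter of 1 count and without any 1 library other than replicate 4 at 25 °C. *nhr-47* passed in mutants alone (0.20 ± 0.04). *nhr-46*, *nhr-25*, *nhr-10*, *nhr-20*, *nhr-86* and *nhr-17* did not reach an adjusted p of 0.05 in either strain, with log2 fold changes between −0.06 and 0.06. Further down the ranking, *nhr-97* (19.5 CPM per kb) had the lowest adjusted p of any member in both strains. It ranged over 108 to 130 CPM in mutants at 25 °C, against 60.3, 55.7, 51.0 and 53.4 CPM in mutants at 20 °C. In wild type it had 136, 129, 133 and 118 CPM at 25 °C, against 68.8, 62.3, 58.1 and 59.3 CPM at 20 °C. The temperatures were far apart in both strains, at log2 fold changes of 1.16 ± 0.05 in mutants and 1.06 ± 0.06 in wild type (edgeR adjusted p = 1.49e-15 and 6.31e-10).

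Of 10 receptors with clear counterparts outside nematodes, 9 passed the filter in each comparison and *nhr-111* in none. At 25 °C against 20 °C, 6 of the 9 were higher in mutants and 5 in wild type at an adjusted p under 0.05, and none was lower. Of all genes 36.3% were higher and 33.0% lower in mutants, and 34.8% and 31.3% in wild type. Of all *nhr* members tested, 94 of 169 were higher in mutants and 93 of 170 in wild type. *nhr-91*, the counterpart of the germ cell nuclear factor of vertebrates, had 37.3, 47.6, 42.4 and 43.7 CPM in mutants at 25 °C, against 22.1, 18.1, 16.8 and 19.5 CPM in mutants at 20 °C. In wild type it had 47.7, 49.3, 52.8 and 40.0 CPM at 25 °C, against 25.3, 22.4, 20.0 and 19.6 CPM at 20 °C. It alone among the 9 was called in both strains (log2 fold change 1.21 ± 0.08 in mutants, 1.12 ± 0.09 in wild type), and it overlaps *glb-28*. Of the 9, 1 was called higher in mutants and 3 in wild type, where 18.8% and 20.0% of all genes were.

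*nhr-41*, a counterpart of the testicular receptors of mammals, was higher at 25 °C by 0.80 ± 0.09 in mutants and 1.08 ± 0.11 in wild type on the log2 scale. *nhr-8* was higher by 0.68 ± 0.11 in mutants and 1.08 ± 0.12 in wild type. *nhr-23* was higher by 0.68 ± 0.05 in mutants and 0.56 ± 0.06 in wild type. *nhr-85*, the counterpart of fly E75 and mammalian Rev-Erb, was higher by 0.91 ± 0.19 in mutants and 0.92 ± 0.19 in wild type, and it overlaps *npr-14*. These 4 passed an adjusted p of 0.05 in both strains, and *nhr-48*, related to DAF-12, passed in mutants (0.21 ± 0.05) but not in wild type (−0.03 ± 0.09). *nhr-25*, *nhr-67*, the counterpart of fly tailless, and *nhr-6*, which acts in the development of the spermatheca, did not pass in either strain. *nhr-6* was scarce, at 1.23 ± 0.259 CPM in mutants at 25 °C, 1.36 ± 0.407 CPM in wild type at 25 °C, 0.876 ± 0.288 CPM in mutants at 20 °C and 1.16 ± 0.170 CPM in wild type at 20 °C. Between strains, 1 of the 9 was higher at 20 °C (*nhr-25*) and 1 lower at 25 °C (*nhr-8*), where 7.65% and 2.03% of all genes were.

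Of 11 receptors with known parts in metabolism, all passed the filter in every comparison. At 25 °C against 20 °C, 5 were higher in mutants and 6 in wild type at an adjusted p under 0.05, and none was lower. Among all genes 36.3% were higher and 33.0% lower in mutants, and 34.8% and 31.3% in wild type. Among all *nhr* members tested, 94 of 169 were higher in mutants and 93 of 170 in wild type. The same 3, *nhr-62*, *nhr-31* and *nhr-14*, were called in both strains. Calls as higher made up 18.8% of all genes in mutants and 20.0% in wild type. Of the *nhr* members tested, 40 of 169 were called higher in mutants and 40 of 170 in wild type. *nhr-62*, which is needed for the long life of worms on a restricted diet, had 8.15, 11.1, 8.95 and 6.58 CPM in mutants at 25 °C, against 2.61, 1.48, 1.84 and 1.95 CPM in mutants at 20 °C. In wild type it had 10.7, 7.17, 8.54 and 8.36 CPM at 25 °C, against 3.52, 2.70, 2.39 and 2.65 CPM at 20 °C. The temperatures were separated in both strains, at log2 fold changes of 2.19 ± 0.18 in mutants and 1.63 ± 0.17 in wild type.

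*nhr-31*, which controls proton pump genes in the excretory cell, had 25.4, 27.7, 26.2 and 24.7 CPM in mutants at 25 °C, against 9.27, 8.02, 7.63 and 7.62 CPM in mutants at 20 °C. In wild type it had 26.9, 30.3, 31.3 and 26.9 CPM at 25 °C, against 11.3, 12.7, 8.23 and 9.28 CPM at 20 °C. Its log2 fold change was 1.72 ± 0.09 in mutants and 1.48 ± 0.11 in wild type, with every library at 25 °C above every library at 20 °C. *nhr-14* was higher at 25 °C by 1.71 ± 0.09 in mutants and 1.44 ± 0.12 in wild type.

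Among the other metabolic receptors, *nhr-66* and *nhr-49* passed in both strains with log2 fold changes under 0.5. *nhr-66* lost the threshold in wild type without wild-type replicate 2 at 20 °C. *nhr-114*, which protects the germ line against dietary metabolites, passed in wild type (0.53 ± 0.09) and not in mutants (0.12 ± 0.08), and it overlaps *Y45G5AM.9*. *nhr-10* and *nhr-68*, which together drive the propionate shunt, *nhr-13* and *nhr-80*, partners of NHR-49 in fat metabolism, and *nhr-64* did not pass in either strain. Their log2 fold changes were between −0.10 and 0.12 in mutants and between −0.09 and 0.24 in wild type.

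**Figure D5:**
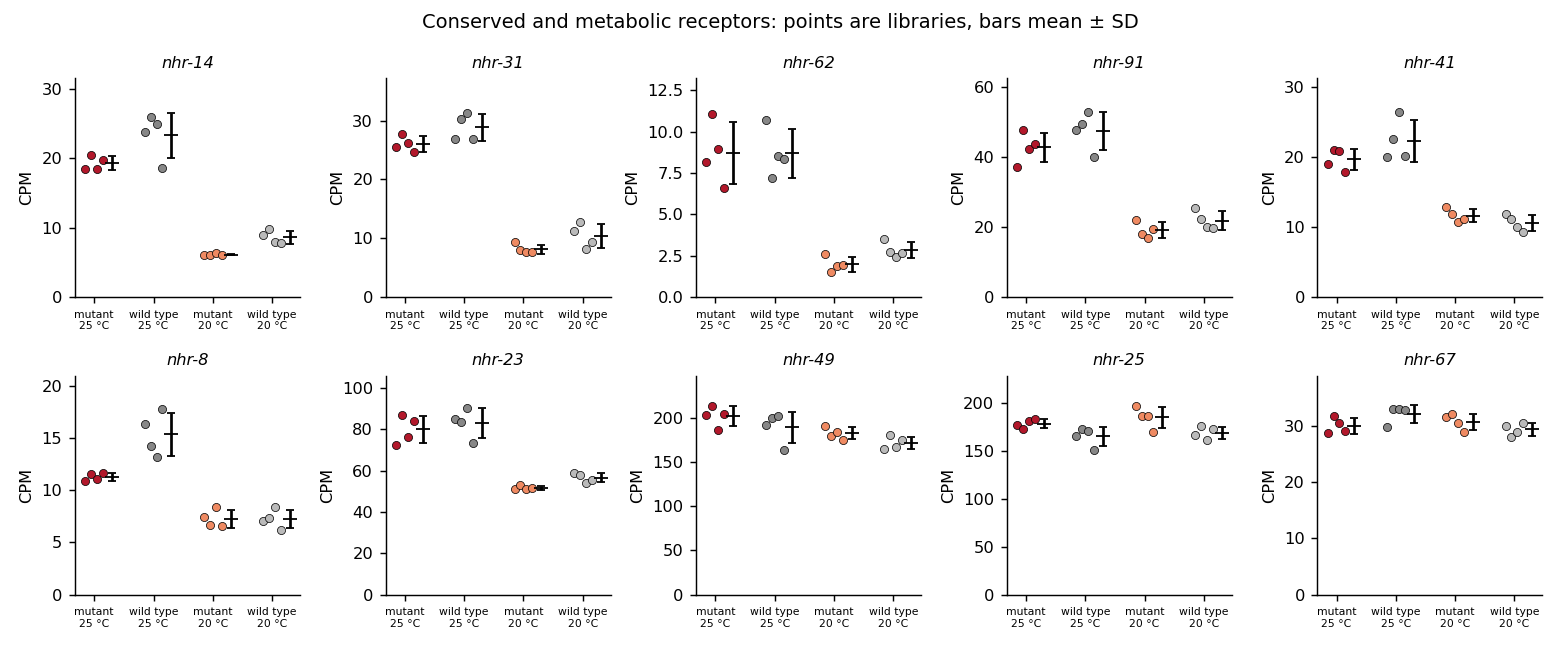
CPM of 10 conserved or metabolic *nhr* genes by group; points are libraries and bars are the mean ± SD (4 libraries). *nhr-14*, *nhr-31*, *nhr-62*, *nhr-91*, *nhr-41*, *nhr-8* and *nhr-23* have every library at 25 °C above every library at 20 °C, whereas *nhr-49*, *nhr-25* and *nhr-67* overlap between the temperatures in at least 1 strain.

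The difference between the strains in the effect of temperature was tested as an interaction over all 16 libraries. Of 184 members tested with edgeR, none was called and none had an adjusted p under 0.05, 15 had an unadjusted p under 0.05, and DESeq2 gave 0 calls as well. Over all 12117 genes tested 0.182% were called in either direction, and 1.16% passed an adjusted p of 0.05 without the fold minimum. A gene called in 1 strain and not in the other, such as *nhr-41*, is therefore not shown to differ between strains in its response.

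The receptors that carry other names, the cofactors, the enzymes of hormone synthesis and a few known target genes were examined beside the family. *daf-12*, the receptor of the steroid dafachronic acids that controls dauer formation, averaged 8.85 ± 1.48 CPM in mutants at 25 °C, against 1.93 ± 0.601 CPM in mutants at 20 °C, and 9.15 ± 1.91 CPM in wild type at 25 °C, against 2.94 ± 0.501 CPM in wild type at 20 °C. Its log2 fold change was 2.23 ± 0.18 in mutants and 1.63 ± 0.18 in wild type. *fax-1*, a receptor that specifies neurons, was likewise higher at 25 °C (2.07 ± 0.16 in mutants, 1.59 ± 0.15 in wild type). *sex-1*, which takes part in counting X chromosomes, was lower at 25 °C (−0.28 ± 0.04 in mutants, −0.30 ± 0.05 in wild type), and *unc-55* and *odr-7*, receptors of single neuron types, did not pass the filter. Between strains at 20 °C *sex-1* was higher in mutants (0.16 ± 0.04, adjusted p = 0.0036 in edgeR) and *fax-1* lower (−0.56 ± 0.19, adjusted p = 0.0402 in edgeR), and none of the 3 tested passed at 25 °C.

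Of 9 cofactors and hormone enzymes, 6 were tested between temperatures in mutants and 7 in wild type. *dhs-16*, an enzyme of dafachronic acid synthesis, was the 1 called, higher at 25 °C in both strains. Of all genes 18.8% were called higher in mutants and 20.0% in wild type. *dhs-16* averaged 7.95 ± 1.42 CPM in mutants at 25 °C, against 1.31 ± 0.388 CPM in mutants at 20 °C, and 10.1 ± 1.00 CPM in wild type at 25 °C, against 2.32 ± 0.434 CPM in wild type at 20 °C. At 20 °C it was lower in mutants than in wild type (log2 fold change −0.84 ± 0.25, adjusted p = 0.0218 in edgeR), and *smo-1*, which encodes SUMO, was higher (0.17 ± 0.05, adjusted p = 0.0121 in edgeR). The coactivator genes *mdt-15* and *cbp-1* did not differ between strains at an adjusted p of 0.05.

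Of a list of 8 metabolic genes, most of them known targets of NHR-49 or of NHR-10 and NHR-68, 6 were tested between strains at 20 °C. *acdh-1*, the propionate shunt enzyme, was higher in mutants at 22.3 ± 0.779 CPM, against 14.3 ± 2.75 CPM in wild type (log2 fold change 0.65 ± 0.10, adjusted p = 9.01e-05 in edgeR). *fmo-2*, a flavin monooxygenase, was lower in mutants at 3.05 ± 0.334 CPM, against 4.90 ± 0.997 CPM in wild type (−0.71 ± 0.17, adjusted p = 0.00583 in edgeR). Of all genes at 20 °C, 7.65% were higher and 9.66% lower at an adjusted p under 0.05. None of the 7 tested at 25 °C passed, where 2.09% of all genes were higher and 2.03% lower. At 25 °C against 20 °C the desaturase genes *fat-5* and *fat-6* were called higher in both strains (*fat-6* by 2.79 ± 0.38 in mutants and 2.06 ± 0.27 in wild type). *acs-2*, an acyl-CoA synthetase, and *acdh-2* were called lower in both (*acs-2* by −1.13 ± 0.17 in mutants and −1.30 ± 0.16 in wild type). *hacd-1* was called higher in mutants alone (1.09 ± 0.25, against 0.47 ± 0.28 in wild type). Of all genes 18.8% were called higher and 1.05% lower in mutants, and 20.0% and 1.13% in wild type. *acdh-1* was higher in wild type (0.36 ± 0.13) and lower in mutants (−0.22 ± 0.08), both at an edgeR adjusted p of 0.0244 and neither called. Its interaction had an adjusted p of 0.0603 in edgeR.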

How the data were processed

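Per the submitters' notes, Trimmomatic 0.39 and Salmon 1.5.1 were used. The deposited values are the authors' estimated counts per gene, which need not be whole (16.8% of the *nhr* values were more than 0.01 from a whole number). The libraries were not directional. The build in the submitters' processing notes is WBcel235, and lengths and coordinates came from Ensembl 115 annotation of that build. The deposited log2 values per library served only to check columns: all 16 matched their own sample best, with a lowest correlation of 0.988. Deposited columns of the authors' own comparisons (fold changes and p-values) were not used. Counts were rounded, filtered with filterByExpr, scaled by TMM and tested with edgeR 4.0.16 in R 4.3.3 on the libraries compared. Alternatives were DESeq2 1.42.0, RLE and upper-quartile scaling (the last chosen after seeing the data), filters of 1 count and of 10 counts in every library, 1 fit of all 16 libraries, a replicate block, the stage score and leaving out each library. No promoter or protein sequence was used here. Members, gene lists and the rule for naming genes (calls between strains, the 10 highest per kb, the 6 largest changes with temperature and the conserved and metabolic lists) were chosen with earlier results of these data known. *nhr-97*, *nhr-138* and *nhr-168* were named after their values were seen.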

Additional observations from a re-analysis of the deposited data

Results flagged for a closer look

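The libraries of each group were tested with Dixon's test for 44 named *nhr* genes, in the 136 groups with a mean of at least 1 CPM, and for the stage score and the *nhr* share of counts in 8 more. A highest or lowest library lay far from the other 3 in 8 of these 144, all of them levels of *nhr* genes, and chance marks about 1 in 20 groups. In mutants at 25 °C the highest library of *nhr-10* had 70.2 CPM. In mutants at 20 °C the lowest library had 45.2 CPM for *nhr-20* and 29.4 CPM for *nhr-68*. In wild type at 25 °C the highest library of *nhr-13* had 26.7 CPM, and the lowest had 73.2 CPM for *nhr-66* and 29.8 CPM for *nhr-67*. In wild type at 20 °C the highest library of *nhr-114* had 16.9 CPM and the lowest of *nhr-66* had 70.1 CPM.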

How the results depend on the processing

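At 20 °C between strains the 2 calls became 1 with DESeq2, 5 with a filter of 1 count, 0 with 10 counts in every library, 0 with the stage score and 8 with no fold minimum, and the median log2 fold change was −0.10 with DESeq2, −0.10 with a filter of 1 count and −0.025 with the stage score. At 25 °C between strains the 3 calls became 5 with a filter of 1 count, 1 with 10 counts in every library, 0 with the stage score and 5 with no fold minimum, and the median was −0.0368 with the stage score. In wild type between temperatures the 41 calls became 63 with a filter of 1 count, 25 with 10 counts in every library and 108 with no fold minimum, and the median was 0.52 with upper-quartile scaling, 0.51 with a filter of 1 count and 0.31 with 10 counts in every library. In mutants between temperatures the 42 calls became 24 with 10 counts in every library and 109 with no fold minimum, and the median was 0.52 with DESeq2, 0.51 with a filter of 1 count and 0.30 with 10 counts in every library. The interaction median of −0.0193 became 0.0706 with DESeq2 and 0.0525 with a filter of 1 count. Stricter or looser filters change which genes are tested, and with DESeq2, whose filter also keeps scarce genes, the median of all genes between temperatures was 0.16 in wild type and 0.11 in mutants; other causes were not tested.

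Leaving out 1 library at a time gave 0 to 3 calls at 20 °C and 0 to 3 at 25 °C between strains (0 without mutant replicate 3 at 20 °C, and without mutant replicate 1 or 4 at 25 °C), 39 to 52 in wild type and 40 to 48 in mutants between temperatures, and 0 in the interaction. The medians ran over −0.0988 to −0.0687, −0.1252 to −0.0853, 0.4265 to 0.5021, 0.3353 to 0.4040 and −0.0285 to 0.0458 in the same order. Members detected ran over 158 to 159 in mutants at 25 °C, 171 in wild type at 25 °C, 137 to 139 in mutants at 20 °C and 142 to 144 in wild type at 20 °C. Same-numbered libraries did not deviate together in every pair (correlations of −0.15 to 0.22), so the numbers were not taken as pairing, and with the replicate block the calls numbered 2, 3, 42, 42 and 0 in that order. For single named genes, 774 results kept their direction and side of the threshold, 101 lost the threshold and none changed direction. Members with under about 10 counts per library are limited by depth.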
